A study of Caenorhabditis elegans with 2 samples.

Results

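Peaks of the chromatin protein FLT-1 were examined at 9 genes of the mitochondrial stress response in Caenorhabditis elegans embryos. The genes were taken by name and are hsp-6, hsp-60, dnj-10, atfs-1, dve-1, ubl-5, haf-1, clpp-1 and lonp-1, 9 of the 19973 protein-coding genes on the nuclear chromosomes. A peak was given to a gene when its summit lay from 2000 bp upstream of the gene start to the gene end. Binding was measured by chromatin immunoprecipitation and sequencing (ChIP-seq) with an antibody against GFP. The strain was RW12255, with the allele st12255[flt-1::TY1::EGFP::3xFLAG], and both libraries came from whole organisms at the midembryonic stage, with an age label of 1 hour after synchronisation by egg bleaching. There was 1 group of 2 biological replicates, each with its own biosample, and no second genotype, treatment or time. Whole embryos mix all cell types, so a peak cannot be assigned to any one of them. The label gives the insertion as targeting baz-2, the present name of flt-1, and places it on chromosome I, whereas baz-2 is annotated on chromosome III.

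Worm cells answer damage to mitochondrial proteins with a transcriptional programme called the mitochondrial unfolded protein response. ATFS-1, a bZIP transcription factor that healthy mitochondria import and degrade, goes to the nucleus under stress and acts there with the homeodomain protein DVE-1 and the ubiquitin-like protein UBL-5 to raise the expression of mitochondrial chaperones. The protease subunit CLPP-1 and the peptide transporter HAF-1 act upstream, within mitochondria. FLT-1, or BAZ-2, belongs to the BAZ2 family of bromodomain proteins, and in C. elegans it has been described, with the histone methyltransferase SET-6, as a negative regulator of nuclear genes for mitochondrial function.

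All 3 chaperone genes of the list had a reproducible FLT-1 peak in their promoter, and of the other 6 genes ubl-5 alone did. In the conservative list, which the authors thresholded on agreement between the replicates, 5 of the 9 genes (55.6%) had a peak: hsp-60, clpp-1, hsp-6, ubl-5 and dnj-10. By the same window and list a peak was found at 12.4% of all protein-coding genes. Within a promoter from 1000 bp upstream to 200 bp downstream of the start, 4 of the 9 genes (44.4%) had a peak, against 6.82% of all protein-coding genes. The peak of clpp-1 lay deep inside the gene and was not in the promoter of its outermost start. It was 53 bp upstream of an internal clpp-1 transcript start. At hsp-60 and hsp-6 a divergent gene started nearer to the summit than the gene of the list. The genes atfs-1, dve-1 and haf-1 had no thresholded peak in any list, and lonp-1 had one in the other thresholded list over both replicates alone. That list held peaks at 6 of the 9 genes, against 13.2% of all genes. These counts describe a list that was chosen with results of these data known, and they were not tested. The 9 search windows had a median length of 4884 bp against 4027 bp for all protein-coding genes, so slightly more sequence was searched per gene.

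Single replicates gave fewer calls. In the thresholded list of replicate 1 hsp-60 was the 1 gene with a peak (11.1% of the 9, against 7.85% of all protein-coding genes), and in that of replicate 2 hsp-60 and clpp-1 were the 2 genes (22.2%, against 6.22%). Before any threshold, the ranked list over both replicates held 96357 peaks and put at least 1 at every one of the 9 genes, but it also did so at 71.6% of all protein-coding genes. The 9 genes held 68 of these ranked peaks, with a median of 1.294 peaks per kb of window against 1.022 per kb over all genes. At 21 of the 68 a replicate interval was shared with another ranked peak, so that a replicate value was entered for more than 1 peak. Of the 68 peaks, 63 missed the threshold, which was an irreproducible discovery rate (IDR) of 0.01, or 2 on the -log10 scale. The lowest pooled signal among the 68 was 4.09, the median was 25.6 and the highest was 313, where the signal is the value of the authors' peak caller and has no stated unit.

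Other definitions of a peak or window changed which of these genes were counted. At an IDR of at most 0.001 hsp-60 and clpp-1 remained (6.19% of all genes), with hsp-60 in the promoter (3.56%), and at 0.0001 hsp-60 remained in both windows (2.23% and 1.19%). Promoter calls were made at hsp-60 alone in the list of replicate 1 (4.43%) and in that of replicate 2 (3.53%), at the same 4 genes in the other thresholded list (7.12%) and at all 9 in the ranked list (61.0%). With interval overlap in place of the summit the same 5 genes (13.0%) and 4 promoters (7.29%) were found, and with a window from 1000 bp upstream the same 5 genes (10.2%). A promoter from 500 bp upstream to 100 bp downstream left out hsp-60 and kept 3 genes (5.12%), and one from 2000 bp upstream held 4 (9.09%).

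**Figure D1:**
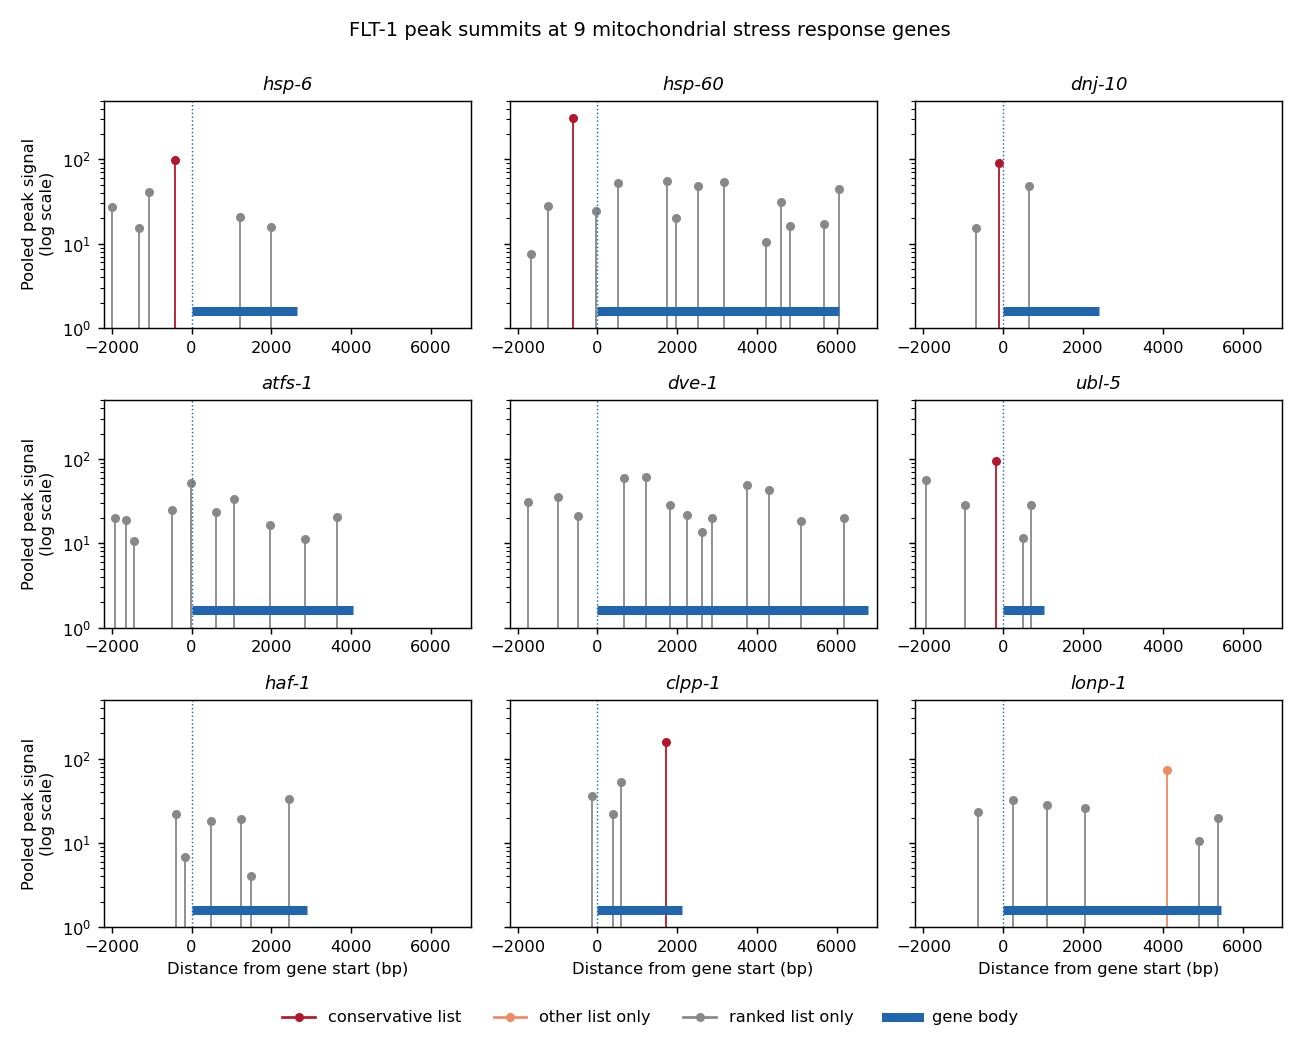
Each panel shows 1 gene, with the distance of every ranked peak summit from the gene start in bp on the x axis and its pooled signal on a log scale on the y axis. Red marks the 5 peaks of the conservative list, orange the lonp-1 peak of the other list, grey the peaks below the thresholds and blue the gene body. The red summits lie upstream of the start at hsp-6, hsp-60, dnj-10 and ubl-5 and 1709 bp inside clpp-1.

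hsp-60 encodes the mitochondrial chaperonin, a folding chamber of the matrix, and had the strongest peak of the list in every data set. Its peak spanned chrIII:1619068-1619212 (ce11), 145 bp wide, and its summit lay 622 bp upstream of the gene start. The pooled signal was 313, with 203 in replicate 1 and 104 in replicate 2 (153 ± 69.99, SD, n = 2). It ranked 188 of 2633 in the conservative list, above 92.9% of its peaks, and 240 of 96357 in the ranked list. This was also the 1 peak of the 9 genes that both replicates called on their own, ranked 143 of 1543 in replicate 1 with a summit at the same distance of 622 bp, and 284 of 1142 in replicate 2 with the summit 625 bp upstream.

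The hsp-60 peak lies between 2 divergent genes and is closer to the other one. Y22D7AL.10, annotated by RefSeq as the mitochondrial 10 kDa heat shock protein, the lid of the same chaperonin, starts 813 bp from hsp-60 on the opposite strand, and the summit was 191 bp upstream of it. The stretch below shows 201 bases centred on the summit, chrIII:1619020-1619220 on the plus strand, because it holds the strongest peak of the list and the letters that the other chaperone peaks were compared with. Capitals mark matches to the searched motifs or their reverse complements.
hsp-60: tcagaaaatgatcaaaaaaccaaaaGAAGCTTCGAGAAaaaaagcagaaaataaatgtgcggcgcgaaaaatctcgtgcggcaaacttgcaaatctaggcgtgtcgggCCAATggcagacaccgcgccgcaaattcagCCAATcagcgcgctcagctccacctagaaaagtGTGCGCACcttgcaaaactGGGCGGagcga

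The remaining ranked peaks of hsp-60 were weak and lay both along the gene and upstream of it. The next 4 were 1754 bp downstream of the start with a pooled signal of 54.8 (47.6 in replicate 1, 11.2 in replicate 2, rank 7781) and 3183 bp downstream with 54.5 (35.7 and 16.2, rank 7910). A peak 510 bp downstream, in a coding exon, had 52.9 (41.1 and 12.6, rank 8754), and one 2512 bp downstream, in an intron, had 47.7 (27.9 and 15.8, rank 12282). The other 9 had pooled signals from 7.62 to 44.5, and none of the 13 peaks below the threshold passed 0.87 on the -log10 IDR scale. Among these 9, the peak 33 bp upstream of the hsp-60 start had 24.3 (18.5 and 11.4, rank 50090). Those 1236 and 1665 bp upstream, with 28.2 and 7.62, had summits inside Y22D7AL.10. The conservative peak was 5.72 times as high as the second, the widest such gap among the 9 genes.

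hsp-6 encodes the mitochondrial Hsp70 and is the gene most used in worms as a reporter of this response. Its conservative peak at chrV:4827038-4827333 had a summit 426 bp upstream of the start and a pooled signal of 98.8, with 62.6 in replicate 1 and 34.8 in replicate 2 (48.7 ± 19.7, SD, n = 2). It ranked 1262 of 2633 in the conservative list and 1448 in the ranked list, so it lay near the middle of the called peaks. As at hsp-60, the summit was nearer to a divergent gene: C37H5.5, annotated by RefSeq as a homologue of nucleolar complex protein 3, starts 600 bp from hsp-6 and had the summit 174 bp upstream of its own start. The summit also lay inside the ncRNA genes C37H5.15 and C37H5.16, which overlap each other on opposite strands. The whole peak is shown on the minus strand, in the direction of hsp-6, with every match to a searched motif in capitals, those farther than 100 bp from the summit included.
hsp-6: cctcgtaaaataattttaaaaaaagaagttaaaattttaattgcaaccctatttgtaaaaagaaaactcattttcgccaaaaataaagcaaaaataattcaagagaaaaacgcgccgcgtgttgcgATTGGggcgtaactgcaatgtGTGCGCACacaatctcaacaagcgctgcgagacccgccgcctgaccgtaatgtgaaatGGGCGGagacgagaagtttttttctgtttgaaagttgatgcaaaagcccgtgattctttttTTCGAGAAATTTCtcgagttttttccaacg

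The other 5 ranked peaks of hsp-6 were weak. Upstream, the peak at 1056 bp had a pooled signal of 40.9 (10.4 in replicate 1, 28.7 in replicate 2, rank 19377) and the one at 1984 bp had 27.2 (17.98 and 8.40, rank 43420). In coding exons, the peak 1220 bp downstream had 21.003 (11.4 and 12.1, rank 58246) and the one 2004 bp downstream had 15.6 (16.8 and 4.06, rank 71144). The last, 1320 bp upstream, had 15.6 and shared its replicate 2 interval with the peak at 1056 bp, so that 1 replicate 2 value of 28.7 was entered for both. All of these weak upstream summits lay inside the divergent gene C37H5.5.

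dnj-10 encodes a mitochondrial DnaJ cochaperone, the kind of partner that loads proteins onto Hsp70. Its conservative peak at chrIII:8630914-8631209 was centred 103 bp upstream of the start, with a pooled signal of 91.2, 54.7 in replicate 1 and 31.4 in replicate 2 (43.0 ± 16.5, SD, n = 2). It ranked 1449 of 2633 in the conservative list and 1674 in the ranked list. No other gene start lay within 1000 bp of this summit, so here, and at ubl-5, the gene of the list had the nearest start. A second peak in an intron, 656 bp downstream, reached 47.8 (20.9 and 21.6, rank 12227). Another, 679 bp upstream and with its summit inside the gene gpr-1, had 15.4 (10.1 and 13.2, rank 71658). The part of the conservative peak that lies before the annotated gene start, chrIII:8630914-8631164 on the plus strand, is shown. It is the 1 chaperone promoter not shared with a divergent gene.
dnj-10: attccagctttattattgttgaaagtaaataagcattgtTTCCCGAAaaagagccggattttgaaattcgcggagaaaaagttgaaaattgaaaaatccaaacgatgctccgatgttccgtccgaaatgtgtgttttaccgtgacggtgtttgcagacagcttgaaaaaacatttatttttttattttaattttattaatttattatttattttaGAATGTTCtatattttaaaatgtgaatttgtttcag

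Pairs of heat shock half-sites, GAANNTTC and TTCNNGAA, were found in the printed stretches of all 3 chaperone genes. At hsp-6 both forms overlapped, so that the letters run as 3 alternating units, with matches centred 122 and 127 bp from the summit and inside the peak. The same arrangement occurred at hsp-60, 66 and 71 bp from the summit and just outside its narrow peak. How often this overlapping arrangement, or both forms together, occurs in other peaks or upstream windows was not counted. At dnj-10 the forms lay apart inside the peak, 71 bp and 105 bp from the summit. Searched on both strands within 100 bp of the summit, hsp-60 and dnj-10 held such a pair and hsp-6 did not. Within 150 bp on either side, about the width of the usual peak and a window chosen after the sequences were seen, all 3 chaperone genes held both forms and clpp-1 neither. The ubl-5 peak was not searched for any motif, so clpp-1 alone stood for the genes outside the chaperones. Each form alone is made of common letters. Within 150 bp GAANNTTC was in 14.6% of the 2611 nuclear conservative peaks and in 19.03% of upstream windows of the same length. TTCNNGAA was in 13.5% and 18.04%. Within 100 bp GAANNTTC was in 9.92% of those peaks and in 12.7% of the 201 bases before all protein-coding starts, and TTCNNGAA in 8.54% and 11.9%. The GC box CCGCCC had 1 match each at hsp-60 and hsp-6, against 12.4% of peaks and 6.01% of upstream windows. No match to the bZIP letters TGACGTCA (0.919% of peaks and 0.941% of upstream windows) or TGANTCA (4.02% and 7.12%) was found within 100 bp of the summits at hsp-60, hsp-6, dnj-10 or clpp-1. The E-box CACGTG (4.06% of peaks and 4.23% of upstream windows), GAGAGAGA (8.35% and 2.75%) and the tRNA B box core GTTCGANNC (10.4% and 0.906%) had no match at these 4 genes either.

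Another 2 sets of letters were searched because they were seen in the sequences printed here. GTGCGCAC, which reads the same on both strands, occurred at hsp-6, centred 3 bp from the summit, and at hsp-60, centred 75 bp from it, against 0.728% of conservative peaks and 0.155% of upstream windows. CCAAT occurred 2 times at hsp-60 and 1 time at hsp-6, but also in 31.9% of peaks and 32.4% of upstream windows. The base composition around the summits varied widely among the genes. GC content over 201 bases was 49.8% at hsp-60, 44.3% at hsp-6, 39.8% at clpp-1, 35.3% at ubl-5 and 28.9% at dnj-10, against a median of 46.3% over nuclear conservative peaks and 32.8% over upstream windows. Among nuclear conservative peaks 0.766% had a lower GC content than dnj-10.

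Of the 3 nuclear factors, ubl-5 was the 1 with a thresholded peak. ubl-5 encodes a small ubiquitin-like protein that partners DVE-1, and its peak at chrI:5608864-5609159 was centred 171 bp upstream of the start. The pooled signal was 95.7, with 53.9 in replicate 1 and 39.8 in replicate 2 (46.9 ± 9.95, SD, n = 2), rank 1331 of 2633 in the conservative list and 1530 in the ranked list. The next gene upstream, vha-10, lies on the same strand and ends before the peak, so no second gene start competes for this summit. Of the 4 weaker peaks in the ubl-5 window, one 1926 bp upstream had 55.8 (30.5 and 20.4, rank 7228) and lay at 0.98 on the -log10 IDR scale. Its summit lay inside another gene, trpp-8, beyond vha-10. The peak 962 bp upstream, with its summit inside vha-10, had 28.2 (14.9 and 16.2, rank 41188). The peak 708 bp downstream had 28.3 (22.8 and 9.38, rank 40950), and the one 499 bp downstream had 11.5 with the same replicate intervals as the peak at 708 bp.

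atfs-1, the gene of the central transcription factor, had a weak peak at its start that did not reach the threshold. The summit was 2 bp upstream of the gene start, with a pooled signal of 52.3, 24.6 in replicate 1 and 21.5 in replicate 2 (23.1 ± 2.20, SD, n = 2), rank 9105 of 96357 and a -log10 IDR of 0.82. Although the replicates were closer here than at any other strongest peak of the 9 genes, both values were low. The peak 1052 bp downstream had 33.9 (19.7 and 12.78, rank 29917) and lay 269 bp into a shorter set of transcripts. The peak 501 bp upstream had 24.9 (17.1 and 13.9, rank 48786), the one 614 bp downstream 23.6 (10.5 and 15.9, rank 51854) and the one 3636 bp downstream 20.5 (13.5 and 10.7, rank 59291). The other 5 ran from 10.8 to 19.9 in pooled signal.

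dve-1 came closest to the threshold from below. This gene of a homeodomain protein has 10 annotated transcripts with 9 different starts, and its 2 strongest peaks lay near internal ones. The peak at chrX:432453-432748 was 1211 bp downstream of the gene start and 183 bp downstream of the nearest transcript start, with a pooled signal of 61.3, 37.5 in replicate 1 and 28.5 in replicate 2 (33.0 ± 6.34, SD, n = 2). It ranked 5230 and had a -log10 IDR of 1.81, where the weakest conservative peak of the list, at dnj-10, had 2.48. The second peak, 668 bp downstream, had 59.1 (30.9 and 32.0, rank 5940) and a -log10 IDR of 1.52. No other peak below the threshold at the 9 genes passed 1 on that scale. Further peaks at 3746 bp (49.8, 32.2 and 17.2, rank 10799), at 4308 bp (42.4, 25.6 and 15.1, rank 17471) and at 994 bp upstream (35.4, 18.1 and 12.9, rank 27281) were less reproducible, and the other 8 ran from 13.5 to 30.8 in pooled signal. The summit 994 bp upstream lay inside the ncRNA annotation ZK1193.7.

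clpp-1 had the second strongest peak of the list, deep inside the gene and between 2 annotated internal starts. The gene encodes the proteolytic subunit of the mitochondrial Clp protease. The peak at chrII:10300985-10301280 had its summit in an intron, 1709 bp downstream of the gene start, and reached into exon sequence on both sides. The pooled signal was 159, with 86.8 in replicate 1 and 64.0 in replicate 2 (75.4 ± 16.1, SD, n = 2), rank 541 of 2633 in the conservative list and 646 in the ranked list. The gene mdt-22, for a subunit of Mediator, is nested in clpp-1 on the opposite strand, and the summit was 83 bp upstream of its start. On the other side a short clpp-1 transcript begins, with the summit 53 bp upstream of it. The stretch between the clpp-1 exon and the mdt-22 start, chrII:10301081-10301215 on the plus strand, is shown as the sequence around that summit, and none of the searched motifs falls in it.
clpp-1: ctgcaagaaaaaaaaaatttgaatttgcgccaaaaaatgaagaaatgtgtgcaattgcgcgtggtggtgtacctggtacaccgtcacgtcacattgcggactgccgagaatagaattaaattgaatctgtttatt

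At the start of clpp-1 itself only weak peaks were ranked. One 139 bp upstream had a pooled signal of 36.4 (15.8 and 17.9, rank 25665), one 600 bp downstream had 52.9 (19.8 and 26.4, rank 8751) and one 400 bp downstream had 21.99 (20.6 and 26.4, rank 55820). The last 2 share 1 replicate 2 interval. The summit of the peak at 400 bp lay inside the tRNA gene WBGene00014635 and that of the peak at 600 bp just beside the tRNA gene WBGene00014638, both nested in clpp-1. Neither peak passed the threshold, and the conservative summit was 1026 bp from the nearer tRNA gene.

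lonp-1, the gene of the Lon protease that degrades ATFS-1 in healthy mitochondria, had a peak whose replicate values depend on how overlapping peaks are matched. The peak at chrI:10678123-10678418 had its summit in an intron, 4103 bp downstream of the gene start and 1460 bp upstream of the next gene, ttc-1. Its pooled signal was 74.1, rank 2298 of 2849 in the other thresholded list and 2868 in the ranked list. The ranked list gives 5.00 for replicate 1 and 36.4 for replicate 2 (20.7 ± 22.2, SD, n = 2), a log2 ratio of -2.86, and 6 of the 2831 peaks of the other list with replicate values had a lower ratio. In the own ranked list of replicate 1, however, 2 peaks overlap this summit. The one matched is the 5.00 peak at chrI:10678200-10678483, and the one not matched, at chrI:10677999-10678282, has 36.5, close to the 36.4 of replicate 2. With the matched value the -log10 IDR between the replicates was 0.20, so the peak is not in the conservative list, while behind the other list it was 2.14.

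The other 6 ranked peaks of lonp-1 were weak. The peak 242 bp downstream of the start had a pooled signal of 32.2 (28.2 and 9.18, rank 32957), and the one 1110 bp downstream had 28.3 (16.9 and 14.8, rank 40960). At 2039 bp downstream the signal was 26.3 (21.5 and 6.83, rank 45374). At 622 bp upstream, with the summit inside the gene spcs-1, it was 23.1 (15.8 and 9.80, rank 53015). The remaining 2, toward the gene end, were weaker, the lower with 10.6. haf-1, the gene of the half-transporter that exports matrix peptides, had the weakest leading peak of the 9 genes. That peak, in a coding exon 2436 bp downstream, had 33.0 (19.4 and 14.4, 16.9 ± 3.53, SD, n = 2, rank 31371), and the next, 395 bp upstream, had 22.3 (22.7 and 11.3, rank 54919). The peaks 1238 bp, 483 bp and 1484 bp downstream had 19.3, 18.2 and 4.09, and the one 172 bp upstream had 6.74.

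**Figure D2:**
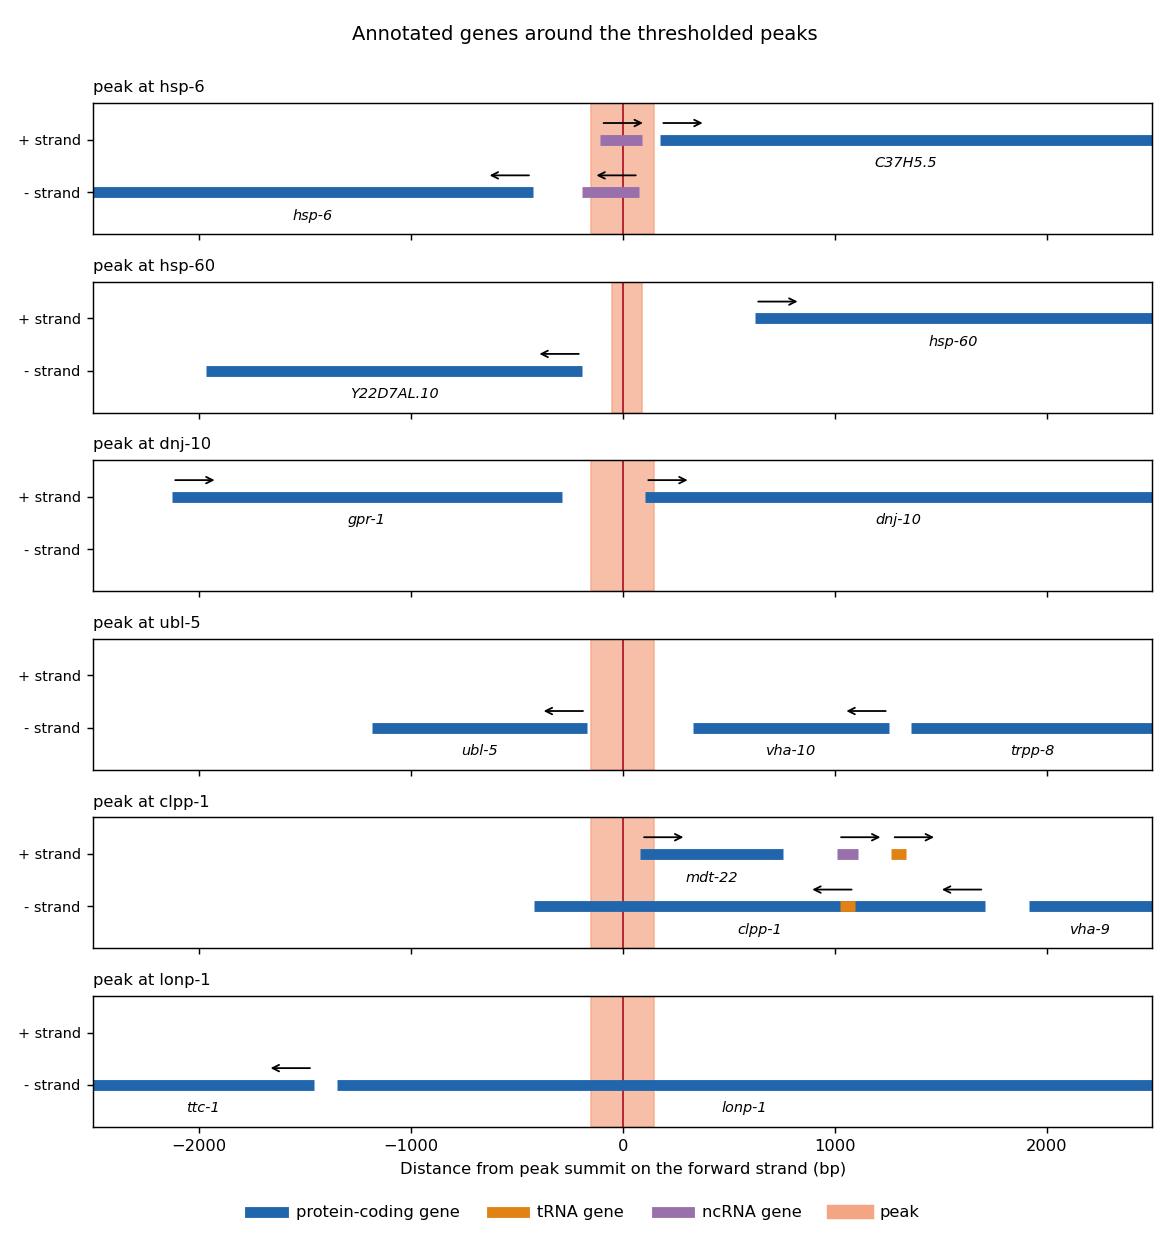
Each row shows the annotated genes on either strand around 1 thresholded peak, with the distance from the summit along the forward strand in bp on the x axis, arrows at gene starts and the peak shaded. The summits at hsp-60, hsp-6 and clpp-1 are nearer to the starts of Y22D7AL.10, C37H5.5 and mdt-22, at 191, 174 and 83 bp, than to the outermost start of the gene they are listed under.

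When every peak was given to the nearest protein-coding gene start alone, which leaves internal transcript starts aside, 2 of the 9 genes kept a conservative peak, dnj-10 and ubl-5, both in the promoter, against 8.18% of all protein-coding genes, or 5.01% in the promoter. By outermost gene starts, another gene was nearer at 3 of the 5 conservative peaks, but at clpp-1 the gene's own short transcript begins nearer, at 53 bp, than mdt-22 at 83 bp. The data do not resolve which of 2 divergent genes a shared peak belongs to. The nearest tRNA, snRNA or snoRNA gene was 1026 bp from the summit at clpp-1, 2651 bp at ubl-5, 8244 bp at dnj-10, 14347 bp at hsp-60 and 472645 bp at hsp-6.

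Ordered by the pooled signal of the strongest ranked peak, the genes ran from hsp-60 through clpp-1, hsp-6, ubl-5, dnj-10, lonp-1, dve-1 and atfs-1 to haf-1. Of the 8 pairs of neighbours in this order, 4 lay apart in both replicates. The lower hsp-60 replicate (104) exceeded the higher clpp-1 replicate (86.8), and the lower clpp-1 replicate (64.0) narrowly exceeded the higher hsp-6 replicate (62.6). In the middle of the order hsp-6 overlapped ubl-5, ubl-5 overlapped dnj-10, dnj-10 overlapped lonp-1 and lonp-1 overlapped dve-1. dve-1 lay above atfs-1 (28.5 against 24.6) and atfs-1 above haf-1 (21.5 against 19.4). These differences between genes were not tested, since the genes were chosen with results known and each has 2 values. Replicate 1 was higher at all 5 conservative peaks, as it was at 85.4% of the whole conservative list, and the log2 ratio was 0.97 at hsp-60, 0.85 at hsp-6, 0.80 at dnj-10 and 0.44 at both clpp-1 and ubl-5, against a median of 0.44 over the list.

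**Figure D3:**
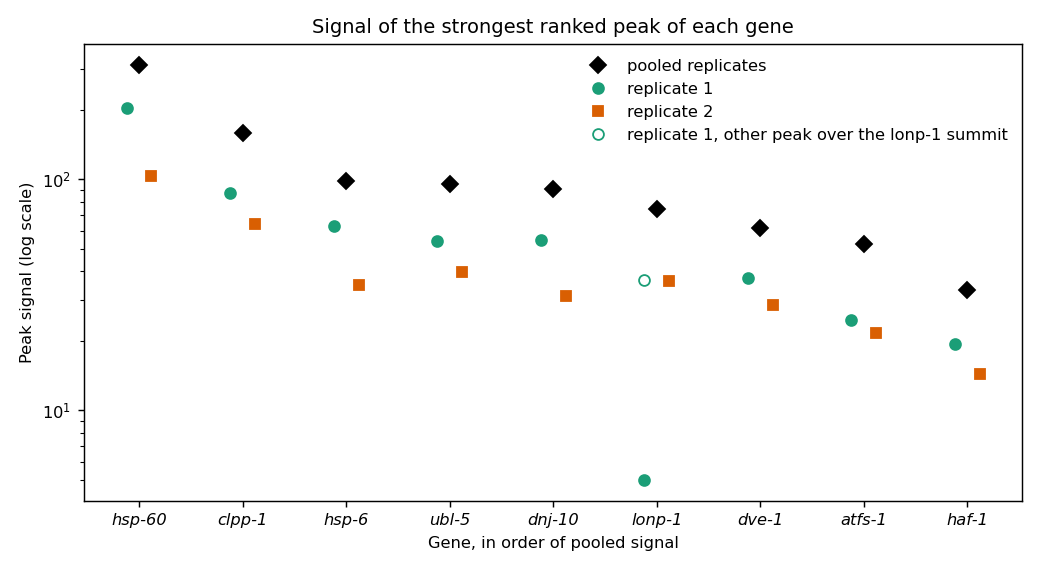
The y axis gives the signal of the strongest ranked peak of each gene on a log scale, with the 9 genes on the x axis in order of pooled signal. Diamonds are the pooled replicates, filled circles replicate 1, squares replicate 2, and the open circle is the unmatched replicate 1 peak over the lonp-1 summit, at 36.5. hsp-60 stands above all other genes in both replicates, and the filled lonp-1 circle at 5.00 stands far below its neighbours.

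The IDR values show how close the calls of single replicates were to the threshold of 2. hsp-60 had a -log10 IDR of 4.59 between the replicates, 4.88 within replicate 1 and 4.33 within replicate 2. clpp-1 had 3.66 between the replicates and 3.01 within replicate 2, but 1.996 within replicate 1, just under the threshold. hsp-6 had 2.77 between the replicates, 1.91 within replicate 1 and 0.17 within replicate 2. The chaperone peak at dnj-10 had 2.48, 1.95 and 0.74 in the same order, and the peak at ubl-5 had 2.83, 1.695 and 1.57. In the ranked list behind the other thresholded list these 3 genes had 2.91, 2.58 and 2.90. Thus hsp-6, dnj-10 and ubl-5 passed the threshold in both lists over the 2 replicates and in neither replicate alone.

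**Figure D4:**
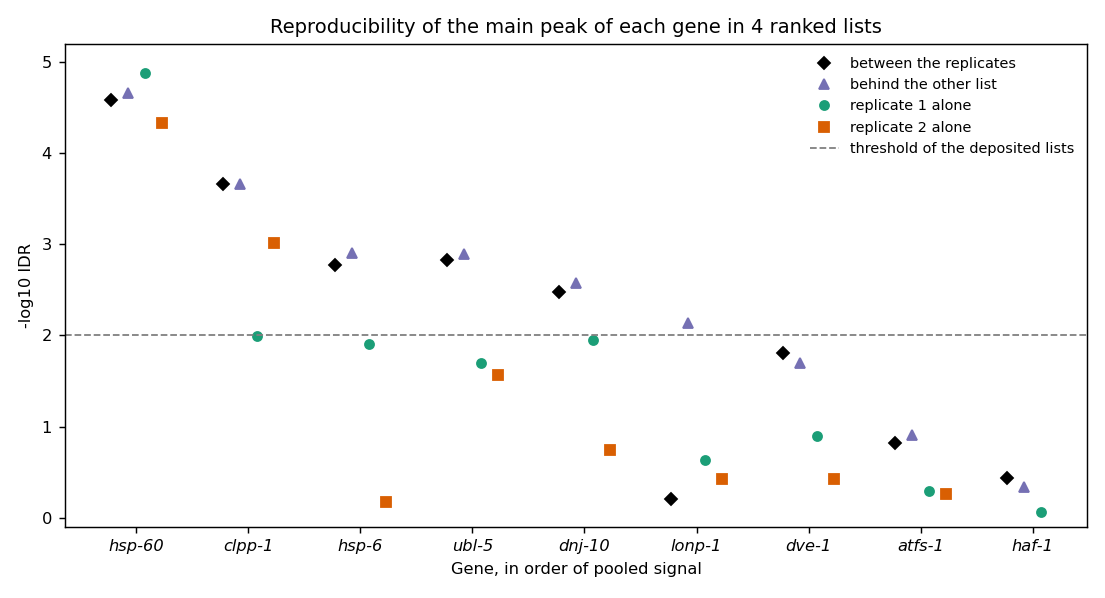
The y axis gives the -log10 IDR of the peak over the main summit of each gene, and the x axis the genes in order of pooled signal. Symbols are the 4 ranked lists and the dashed line is the threshold of 2. hsp-60 is above it in all 4 lists, clpp-1 in 3, hsp-6, ubl-5 and dnj-10 in 2 and lonp-1 in 1, while replicate 2 alone had no peak over the haf-1 summit.

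Beyond the 9 genes, FLT-1 peaks were also found at other genes of mitochondrial protein quality control and at regulators of the response. Of 56 further genes in 7 lists, 15 (26.8%) had a conservative peak from 2000 bp upstream to the gene end, against 12.4% of all protein-coding genes, and 13 (23.2%) had one in the promoter, against 6.82%. Of the 5 further mitochondrial chaperone genes 3 had a peak, of the 10 protease and prohibitin genes 2, of the 15 import genes 3, of the 8 chromatin regulators 3, of the 8 other regulators 3, of the 6 fusion, fission and mitophagy genes 1 and of the 4 antioxidant genes 0. These lists were also chosen with earlier results of these data known, and the counts were not tested. The peak counted for Y22D7AL.10 is the hsp-60 peak already counted above. The strongest peak was higher in replicate 1 at 12 of the 15 genes.

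The Hsp70 and chaperonin partners were among them. The peak of Y22D7AL.10 is the one shared with hsp-60. C34C12.8, annotated by RefSeq as the mitochondrial GrpE homologue, the nucleotide exchange factor of Hsp70, had a peak 130 bp upstream with a pooled signal of 125, 48.0 in replicate 1 and 75.1 in replicate 2 (61.5 ± 19.2, SD, n = 2). bcs-1, for an inner membrane chaperone of complex III assembly, had one of 147.7, but its summit was 1539 bp upstream and 381 bp from the ribosomal protein gene rpl-5. The prohibitin gene phb-2, for a scaffold of the inner membrane, had 94.5 (50.7 and 36.3) at 465 bp upstream. Among import genes, ddp-1 of the intermembrane space had 233 (142 and 95.9) at 136 bp upstream, and tomm-20, for a receptor of the outer membrane, had 212 (133 and 80.9) at 279 bp upstream.

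The 6 regulators of the response with a peak covered most of the range. cbp-1, the acetyltransferase gene of the p300/CBP family, had 4 conservative peaks, the strongest 893 bp upstream with 429 (257 and 177). wwp-1, for a ubiquitin ligase, had 237 (146 and 103) at 244 bp upstream. Its second peak, of 145, was 1652 bp upstream and 321 bp from the start of icd-2. The histone demethylase gene jmjd-1.2 had 198 (109 and 72.7) at 416 bp upstream, although F29B9.11 starts nearer, at 374 bp. The other 3 were weaker. rheb-1, for a small GTPase, had 87.8 (52.3 and 40.4) at 304 bp upstream, where spk-1 starts nearer, at 274 bp. baz-2 itself had 85.95 (36.97 and 42.7) at 660 bp upstream, but this summit was 27 bp from the start of ZK783.7. ulp-4, for a SUMO protease, had 81.7 (42.5 and 50.1) at 1018 bp upstream. From the mitophagy list pdr-1, the parkin gene, had 113 (65.9 and 30.5) at 157 bp upstream, where the start of cyk-4 is nearer, at 132 bp. When each peak went to the nearest gene start alone, 9 of the 56 genes (16.1%) kept one, against 8.18% of all protein-coding genes.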

How the data were processed

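Anti-GFP ChIP-seq was measured in 2 biological replicates of 1 group, and replicate numbers come from the labels. The authors deposited peak lists without reads, per the file descriptions beside them made from filtered alignments and a control file, with coordinates in ce11. The sources used here name no peak caller or aligner and give no read numbers, so depth is unknown and no counting interval is given. The deposited signal of the authors is the peak caller's value per peak, used only to describe and rank peaks within a list. In the thresholded lists deposited by the authors the score was at least 830. The deposited ranked lists hold -log10 of the global IDR, and every conservative peak was at 2.00 or more. Of the ranked peaks, 2817 reached that value and 184 of these are not in the conservative list, none of them at the 9 genes.

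The ranked list has 2 further signal columns. They were taken as replicates 1 and 2 because 74913 of 74914 and 41210 of 41210 peaks with an interval of the replicate's own list had the identical signal. Ranks are by pooled signal over all peaks of a list. Genes came from Ensembl release 115 on WBcel235 (ce11), and sequences and product names from RefSeq on WBcel235, with 1-based coordinates. Of 59 further pathway names 56 matched the annotation. The members and lists were chosen with earlier results of these data known. Named were all 9 genes with up to 5 ranked peaks each (more at hsp-6, hsp-60 and haf-1), genes starting within 1000 bp of their thresholded summits, and up to 10 pathway genes by signal. The names rheb-1, baz-2 and ulp-4 were added after their values were seen. No test was run, since there is 1 group and the genes were chosen with results known. Alternatives were the other lists, stricter IDR values, other windows, interval overlap and the nearest start. The assignment of peaks to genes was tested on simulated data. Python 3.11.15, NumPy 2.4.6, pandas 2.3.3 and matplotlib 3.10.9 were used.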

Additional observations from a re-analysis of the deposited data

How the results depend on the processing

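The count of genes with a conservative peak stayed within 1.5 times of 5 with the other thresholded list, interval overlap or a window from 1000 bp upstream. It was 1 and 2 in the single replicate lists, 2 at an IDR of at most 0.001, 1 at 0.0001, 2 with the nearest start alone and 9 in the ranked list. The promoter count of 4 was 1 in either single replicate list, 1 at both stricter IDR values, 2 with the nearest start and 9 in the ranked list, and it was 3 or 4 in narrower and wider promoters. The further pathway genes numbered 8 in the list of replicate 1 (7.85% of all genes) and 10 in that of replicate 2 (6.22%). They were 8 at an IDR of 0.001 (6.19%), 5 at 0.0001 (2.23%), 9 with the nearest start (8.18%) and 54 in the ranked list (71.6%). The median signal over members with a peak was 98.8 pooled, 62.6 in the replicate 1 column and 39.8 in the replicate 2 column, and ran from 83.8 to 203 in the single replicate lists, where 2 and 1 genes were left. Of the 9 places in the order, 3 were the same by replicate 1 and 5 by replicate 2, and 5 by replicate 1 with the strongest peak over each summit, an alternative chosen after seeing the data. Stricter or looser lists keep fewer or more peaks, the nearest start reassigns the same peaks, and the replicate columns give other values for them. The cause was not tested otherwise. A heat shock half-site pair was held by 2 of the 4 genes searched within 100 bp of the summit and by 3 within 150 bp, also chosen after seeing the data. No comparison of groups paired by replicate was possible because there is 1 group. The genes were measured in the same 2 replicates, and differences between them were not tested.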
